A study of Homo sapiens with 3 samples.

Results

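The network of MYC, MAX and their MXD and MLX partners was followed in PC3, a cell line from a prostate cancer that grows without androgen, with and without knockdown of USP16. The members were taken by symbol from the deposited expression table. They are the activator MYC, its obligate partner MAX, the antagonists MXD1, MXD3, MXD4, MXI1, MNT and MGA, and the MLX branch, MLX and MLXIP. These are 10 of the 60930 genes in the table, and each symbol had 1 entry. The control library (shCON), labelled RFP by the submitters, came from control PC3 cells. The study describes shCON as a vector control for the cells of its mouse xenografts. The libraries shUSP16#1 and shUSP16#2 came from PC3 cells expressing 1 of the hairpins against USP16, a deubiquitinase. The hairpins against USP16 were carried by the pLKO.1 vector and stable cells were selected with puromycin. Time of harvest is not given in the sources used here. Each condition had 1 library, so no difference has a replicate check, and no test or interval is given. The values are TPM, in which reads are taken per transcript length and every library adds up to the same total, and the depth behind them is unknown. Positions are those of GENCODE release 29 on GRCh38.

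c-Myc binds DNA only as a heterodimer with Max, at E-boxes of sequence CACGTG, and activates genes of growth and proliferation. The Mxd proteins, Mxi1, Mnt and Mga compete for Max and for the same sites, and the Mxd proteins, Mxi1 and Mnt recruit the SIN3-HDAC corepressors. Mlx is a parallel to Max: it pairs with MondoA, the product of MLXIP, in the response to glucose, and with some of the antagonists. The balance of MYC to its antagonists was asked for at the RNA level, and protein was not measured by these data.

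The sequences that set the conditions are the antisense strands of the hairpins, shown 5′ to 3′ as the study's primer list gives them. Capitals mark the seed, bases 2 to 8, counted from the 5′ end of the strand as listed.
shUSP16#1 antisense: aTAAACATgatttcttctggc
shUSP16#2 antisense: aAATCTTGtggaatatcaccg
The full 21 bases of either hairpin matched USP16 transcripts of GENCODE release 29 and no transcript of the 10 members. A match to the seed of shUSP16#1 was found in the 3′ untranslated region of MXI1 and MGA, and one to that of shUSP16#2 in the region of MXD1 and MXD3. Of 11330 tested genes with such a region, 22.8% held a match for shUSP16#1 and 12.1% for shUSP16#2. A match is a description of the letters and not of binding.

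USP16 itself was at 19.9 TPM in shCON against 3.5 TPM with shUSP16#1 and 1.08 TPM with shUSP16#2. The epithelial keratins KRT8 and KRT18 were between 622 and 947 TPM in the 3 libraries, while KLK3 was listed at 0 in all of them. Of the 3 markers each of leukocytes, fibroblasts and neuroendocrine cells, DCN and INSM1 were listed at 0 throughout, CD68 was at 31.7 to 42.2 TPM, COL1A1 at 4.19 to 10.7 TPM, and no other exceeded 0.86 TPM. Changes are differences from shCON in log2(TPM + 1), which makes the changes of low genes look smaller than they are. Genes averaging 1 TPM or more over the libraries were compared (13637, called tested genes here), and all 10 members are among them. Their median change was -0.17 under shUSP16#1 and -0.37 under shUSP16#2. Both hairpins are compared with the same shCON library.

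MYC was the most abundant member in each library, and MAX followed. In bulk RNA, fewer cells with a transcript and less of it per cell cannot be told apart. MYC (ENSG00000136997) was at 238 TPM in shCON against 209 TPM with shUSP16#1 and 173 TPM with shUSP16#2. The ratio to shCON was 0.877 and 0.725, on a log2 scale a change of -0.19 and -0.46. Both were close to the median of all tested genes, from which MYC differed by -0.02 and -0.09. The mean change of -0.33 became -0.48 with the GC trend (described further on) removed, and -0.67 when the GC content of the transcript nearest to the table's length was used. The other MYC family genes were barely seen, with MYCN listed at 0 and MYCL at 0.43, 0.59 and 0.78 TPM. MAX (ENSG00000125952, chromosome 14 from 65006174 to 65102695), the shared partner of MYC and the 6 antagonists, was at 97.5 TPM in shCON against 74.5 TPM with shUSP16#1 and 71.3 TPM with shUSP16#2. Its changes were -0.38 and -0.45, so MAX was lower in both knockdown libraries by nearly the same amount. The ratio of MYC to MAX was 2.44 in shCON against 2.80 with shUSP16#1 and 2.42 with shUSP16#2, and showed no direction shared by the hairpins.

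**Figure D1:**
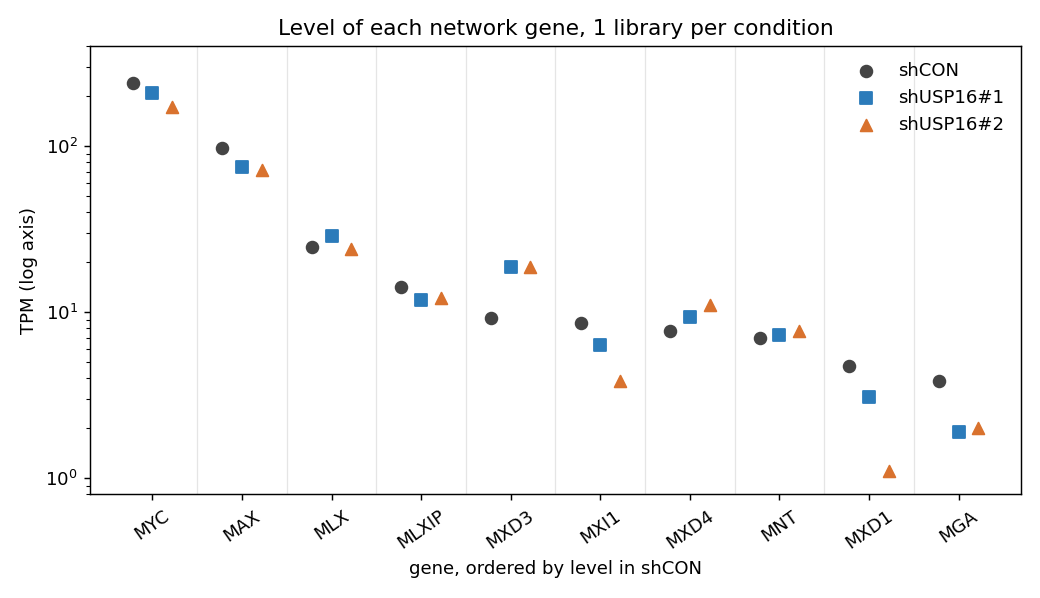
TPM of each of the 10 genes on a log axis, 1 point per library, ordered by the level in shCON. MYC runs from 173 to 238 TPM and MAX from 71.3 to 97.5 TPM, far above the antagonists, of which the highest value is 18.7 TPM for MXD3.

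The antagonists were all below 20 TPM and did not move as a group. In shCON they lay close together, from MXD3 at 9.19 TPM through MXI1 at 8.56, MXD4 at 7.75, MNT at 7.02 and MXD1 at 4.75 to MGA at 3.85 TPM. Over the 3 libraries the range of MNT (7.02 to 7.71 TPM) lay inside that of MXI1 (3.83 to 8.56 TPM), and the range of MGA (1.89 to 3.85 TPM) inside that of MXD1 (1.10 to 4.75 TPM), so the order of these neighbours was not kept. MXD3 was higher in both knockdown libraries, MXD4 and MNT were slightly higher, and MXD1, MXI1 and MGA were lower. With the GC trend described further on removed, MXD4 and MNT were at a mean of -0.15 and -0.37. That scale restores the median of all tested genes, -0.17 and -0.37 under the hairpins. Its sign is therefore not a direction against genes of like GC content.

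MXD3 (ENSG00000213347, chromosome 5 of GRCh38 from 177301461 to 177312757) encodes Mxd3, an Mxd protein known for expression in cycling cells. It was at 9.19 TPM in shCON against 18.7 TPM with shUSP16#1 and 18.7 TPM with shUSP16#2. The ratios to shCON were 2.03 and 2.04, and the hairpin libraries were nearly equal, at a change of 0.95 each. Among all tested genes its mean change ranked at percentile 97.2, the highest of the 10 members. Most proliferation genes were lower, with MKI67 at 29.6, 12.1 and 8.78 TPM and CCNA2 at 38.2, 17.3 and 12.98 TPM.

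The value of MXD3 has a limit in its neighbours. In GENCODE release 29, 17.97% of its exonic bases are shared with RAB24 on the same strand and 22.5% with PRELID1 on the opposite strand, and the sources used here do not state that strand was used in counting. RAB24 was also higher in both knockdown libraries, at 19.8, 33.7 and 35.7 TPM in shCON, shUSP16#1 and shUSP16#2. PRELID1 was at 659, 658 and 724 TPM. Reads in the shared bases cannot be assigned from TPM, and their part in the value of MXD3 was not tested. Of the exonic bases of MNT, 12.2% are shared with an antisense RNA below 1 TPM. MXD1 shares 3.73% with SNRNP27 on the same strand, which was far more abundant, at 59.1, 36.4 and 28.1 TPM, and lower in the same order as MXD1. Its part in the value of MXD1 was not tested.

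MXD4 (ENSG00000123933, chromosome 4 from 2247432 to 2262294), linked to differentiated and quiescent cells, was at 7.75 TPM in shCON against 9.34 TPM with shUSP16#1 and 11 TPM with shUSP16#2, a change of 0.24 and 0.46. MNT (ENSG00000070444, chromosome 17 from 2384060 to 2401118), the broadly expressed antagonist, was at 7.02, 7.32 and 7.71 TPM in the same order. Its ratios to shCON were 1.04 and 1.10, the smallest difference among the antagonists in either library.

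MXD1 (ENSG00000059728, chromosome 2 from 69897688 to 69942945), the founding Mad protein induced in differentiation, had the largest mean change of the network as deposited, at -0.97 beside 0.95 for MXD3. Centred on the overall median the order turned, at -0.70 beside 1.22, while with the GC trend removed it was -0.68 beside 0.65. It was at 4.75 TPM in shCON against 3.08 TPM with shUSP16#1 and 1.10 TPM with shUSP16#2. The ratios were 0.648 and 0.232, and the changes of -0.49 and -1.45 differed by -0.96 between the hairpins. MXI1 (ENSG00000119950, chromosome 10 from 110207605 to 110287365) had the same order, with 8.56 TPM in shCON against 6.36 TPM with shUSP16#1 and 3.83 TPM with shUSP16#2. Both were lowest in the library in which USP16 was lowest, as were MYC, MAX and MLX. The median change of all tested genes was also lower there, at -0.37 against -0.17. Of the members with a match to the seed of shUSP16#2, MXD1 was lower in that library and MXD3 was higher by the same amount as with shUSP16#1. MXI1, without a match to that seed, was lower. MGA (ENSG00000174197, chromosome 15 from 41621224 to 41773081), a large protein that joins Max to a Polycomb complex, was at 3.85 TPM in shCON against 1.89 TPM with shUSP16#1 and 2.01 TPM with shUSP16#2, with no step between the hairpins like that of MXD1 and MXI1. The members with a match to the seed of shUSP16#1, MXI1 and MGA, were both lower in that library, at a change of -0.38 and -0.75. With shUSP16#2 they were at -0.98 and -0.69. What part a seed match plays was not tested.

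In the MLX branch the values as deposited were close to shCON. MLX (ENSG00000108788, at 42567068 to 42573239 of chromosome 17) was at 24.6 TPM in shCON against 28.7 TPM with shUSP16#1 and 23.9 TPM with shUSP16#2, above shCON in one library and below it in the other. Of its exonic bases 18.1% are shared with PSMC3IP on the opposite strand, which was at 24.2, 15.2 and 8.46 TPM. MLXIP (ENSG00000175727, chromosome 12 from 122078722 to 122147347) was at 14.2, 11.9 and 12.2 TPM, a change of -0.24 and -0.21, or -0.46 and -0.59 with the GC trend removed. The ratio of MLXIP to MLX was 0.578 in shCON against 0.416 with shUSP16#1 and 0.508 with shUSP16#2. MLXIPL, the other glucose-responsive partner of Mlx, was below 1 TPM in each library.

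Counted over the network, 6 members were lower under both hairpins (MYC, MAX, MXD1, MXI1, MGA and MLXIP), against 57.2% of all tested genes. The 3 members higher under both (MXD3, MXD4 and MNT) compare with 24.5% of all tested genes. Once the GC trend was taken out and the median of all tested genes restored, 8 members were lower (all but MXD3 and MLX), against 61.3% of the tested genes. On that scale 1, MXD3, was higher, against 17.3%. A difference of at least 1.5 times under both hairpins was found for 1 lower member, MGA (20.8% of all tested genes), and 1 higher member, MXD3 (4.03%). At least 2 times was reached on this scale by 0 members in either direction, against 4.6% lower and 1.14% higher of all tested genes. MXD3, at 0.95, was just short of it. Under shUSP16#2 alone, MXD1, MXI1 and MGA were lower by at least 1.5 times, against 38.5% of all tested genes. The median change of the 10 members was -0.21 and -0.33 under the hairpins, close to the -0.17 and -0.37 of all tested genes. Relative to that median the lower members were 5, without MLXIP (mean 0.05 on this measure), and the higher members were 4, with MLX, where each direction holds 41.7% of all tested genes. MXD3 alone was then higher by at least 2 times under both, as were 2.5% of all tested genes.

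**Figure D2:**
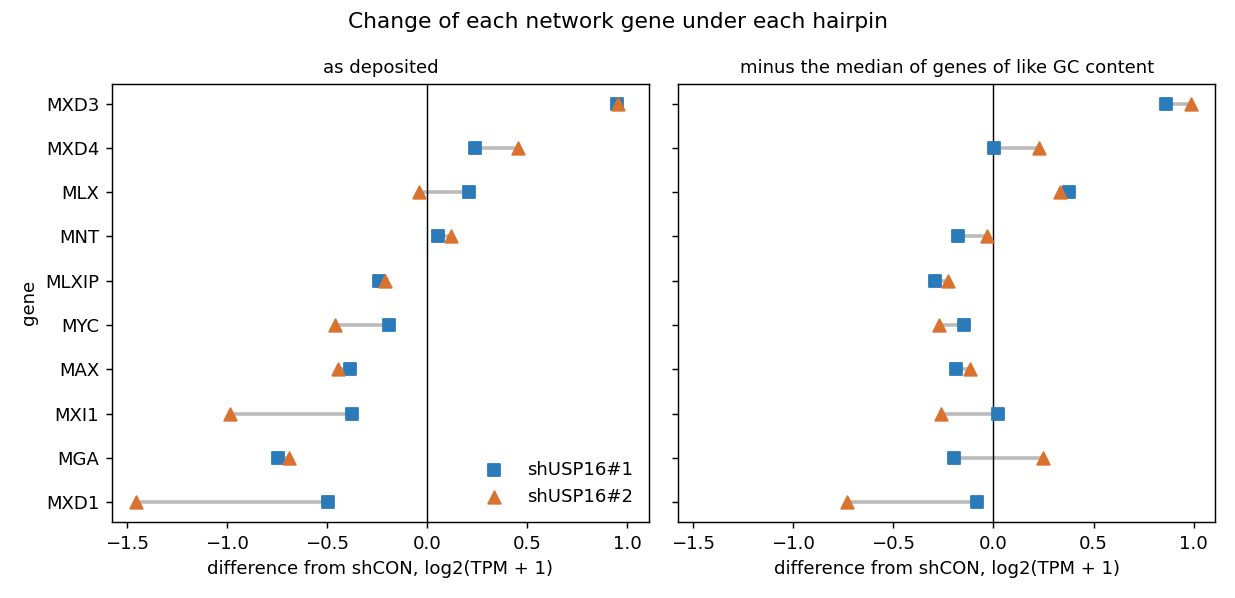
Difference from shCON on the log2(TPM + 1) scale for each gene, squares for shUSP16#1 and triangles for shUSP16#2; the right panel subtracts the median change of tested genes of like GC content. MXD3 is near 0.95 on the left and at 0.86 and 0.99 on the right, while MXD1, MXI1, MGA and MXD4 are nearer to 0 on the right in the shUSP16#1 library.

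The RNA balance of MYC to its antagonists was lower in both knockdown libraries. The summed TPM of the 6 antagonists was 41.1 in shCON against 46.7 with shUSP16#1 and 44.4 with shUSP16#2. With the GC trend removed and the median of all tested genes restored, the sum was 41.7 and 37.0 with the hairpins, so its direction against shCON under shUSP16#2 turned. For each unit of antagonist RNA there were thus 5.79 units of MYC RNA in shCON against 4.48 with shUSP16#1 and 3.89 with shUSP16#2. The log2 change of this ratio was -0.37 and -0.57. A ratio within a library does not depend on how the library was scaled.

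Both parts of the ratio differed, with MYC at 0.877 and 0.725 times its shCON level and the antagonist sum at 1.13 and 1.08 times. The antagonist sum without MXD3 was 31.9 TPM in shCON against 28.0 and 25.65 TPM, lower as MYC was. The size of the shift thus depended on MXD3, whose value is limited by the bases it shares with RAB24 and PRELID1. When MXD3 was left out, a choice made after the values were seen, the ratio was 7.46 in shCON. It was 7.46 with shUSP16#1 and 6.73 with shUSP16#2, a log2 change of 0.00073 and -0.15. With equal weight for each antagonist in place of the sum, the mean log2 change of both hairpins was -0.16, against -0.47 for the sum. MYC against single antagonists went both ways. Its ratio to MXD3 was 25.9 in shCON against 11.2 with shUSP16#1 and 9.22 with shUSP16#2. Its ratio to MXD1 was 50.1 in shCON against 67.8 with shUSP16#1 and 157 with shUSP16#2. The ratio of all antagonists to MAX was 0.422 in shCON against 0.626 with shUSP16#1 and 0.622 with shUSP16#2, which combines the higher MXD3 with the lower MAX.

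The makeup of the antagonist RNA differed more than its sum. MXD3 made up 22.3% of it in shCON against 40.0% with shUSP16#1 and 42.2% with shUSP16#2. MXD3 and MXD4 together were at 16.9 TPM in shCON against 28.0 TPM with shUSP16#1 and 29.7 TPM with shUSP16#2. MXD1, MXI1 and MGA together went from 17.2 TPM in shCON to 11.3 and 6.94 TPM. These groupings were chosen after the values were seen. With the GC trend (described further on) removed, MXD3 still made up 37.0% with shUSP16#1 and 39.6% with shUSP16#2. MGA was then at 9.36% in shCON against 6.60% and 9.34%, and MXD4 at 18.8% against 16.3% and 18.8%. With shUSP16#2 as deposited, MGA was at 4.53% and MXD4 at 24.8%, so neither shift remained in that library. The shares of MXD1, MXI1 and MNT were lower with both hairpins on that scale. Of the RNA for all Max partners as deposited, MYC held 85.3% in shCON against 81.7% with shUSP16#1 and 79.5% with shUSP16#2.

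**Figure D3:**
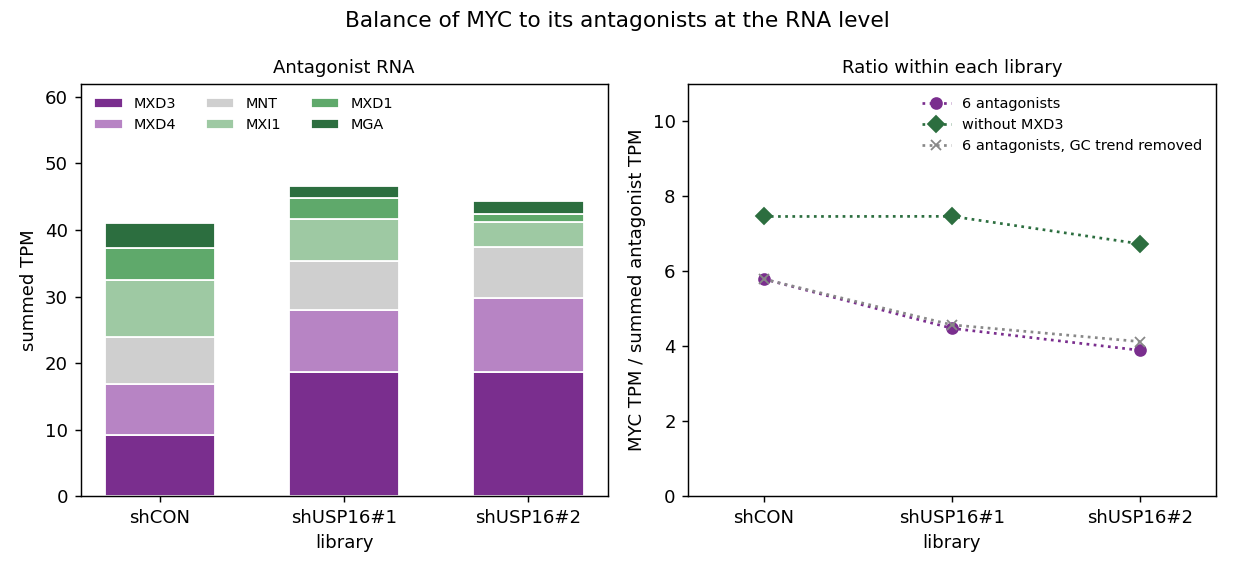
Left, summed TPM of the 6 antagonists in each library, stacked by gene; right, MYC TPM divided by that sum, also without MXD3 and with the GC trend removed. The ratio goes from 5.79 in shCON to 4.48 and 3.89, and without MXD3 from 7.46 to 7.46 and 6.73.

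The level of MYC against the other genes depends on the gene length behind the TPM. The table gives MYC a length of 1365 bases, that of a GENCODE transcript with coding sequence alone, while its longest protein-coding transcript has 2366 bases. If each TPM is rescaled from the table's length to the longest protein-coding transcript, the ratio of MYC to its antagonists is 3.72 in shCON against 3.03 with shUSP16#1 and 2.67 with shUSP16#2. Which length was used to compute the TPM is not given in the sources used here.

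GC content moved with these changes. Across 13296 tested genes the rank correlation of the change with the GC content of the longest protein-coding transcript was 0.54 with shUSP16#1 and 0.64 with shUSP16#2, given as a description, since genes share their libraries. Over the 10 members the rank correlation of GC content with the mean change was 0.82. The lower antagonists MGA, MXD1 and MXI1 had GC contents of 42%, 42.7% and 43.7%, and the higher ones MXD3, MNT and MXD4 had 55.8%, 61.4% and 63.95%.

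Each member was therefore also set against the median change of its GC bin (1 of 50 bins of the tested genes). MXD3 stayed above its bin by 0.86 with shUSP16#1 and 0.99 with shUSP16#2. MXD4 differed from its bin by 0.0037 and 0.23, and MNT by -0.18 and -0.03. MGA differed by -0.20 and 0.25, which have opposite signs. MXI1 differed by 0.02 and -0.26, and MXD1 by -0.08 under shUSP16#1 but -0.73 under shUSP16#2. MYC lay below its bin by -0.15 and -0.27, and MLX above its bin by 0.38 and 0.33. On this measure MYC, MAX, MXD1, MNT and MLXIP were below their bins under both hairpins and MXD3, MXD4 and MLX above. Each direction holds 38.7% of the tested genes. With the bin median subtracted, MXD3 alone was higher by at least 1.5 times under both hairpins, as were 6.42% of the tested genes. With the median of all genes then added back it was again the only one, against 2.42% of the tested genes. Its mean change of 0.95 then became 0.65, and 0.49 with the GC content (61.7%) of the transcript nearest to the table's length. On that last measure MXD3 was at 0.54 with shUSP16#1 and 0.45 with shUSP16#2, short of 1.5 times under each hairpin. What the GC trend reflects was not tested. With the trend removed in all members, the ratio of MYC to its antagonists was 5.79 in shCON against 4.57 with shUSP16#1 and 4.12 with shUSP16#2.

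**Figure D4:**
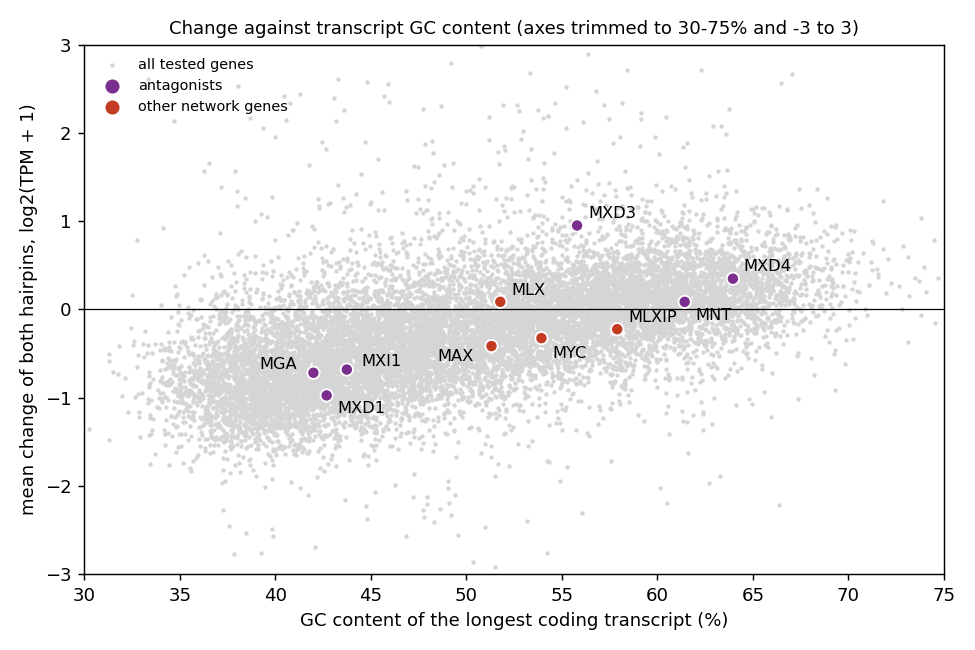
Mean change of both hairpins on the log2(TPM + 1) scale against GC content of the longest coding transcript; grey points are tested genes (69 of 13296 lie outside the axes) and coloured points the 10 network genes. MGA, MXD1 and MXI1 lie among GC-poor genes that were lower in general, and MXD3, at 55.8% GC, lies 0.95 above 0.

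The promoters of the members were searched for the E-box, CACGTG, which reads the same on both strands, because c-Myc with Max and the antagonists bind it. Promoter windows of RefSeq (250 bases before to 50 after each start, GRCh38.p14) were at hand for 9 members and not for MYC. These members had 14 windows, of which 3 held the E-box, 1 each in MXD4, MNT and MLX, while 7.26% of all 35116 windows held it. The sites are shown with 12 bases on either side, on the strand of the gene, with the E-box in capitals.
MXD4, chr4:2262330-2262359, minus strand: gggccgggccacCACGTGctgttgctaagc
MNT, chr17:2401236-2401265, minus strand: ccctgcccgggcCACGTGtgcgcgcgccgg
MLX, chr17:42567038-42567067, plus strand: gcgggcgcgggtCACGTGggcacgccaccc
The RefSeq starts of these windows are not the GENCODE gene bounds given above. Counted from the RefSeq starts, the E-boxes began 238 bases before in MXD4, 193 in MNT and 50 in MLX. The 3 genes that hold it had ratios to shCON from 0.972 to 1.42, and the window of MXD3 held none.

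The partners that the network works through were described from lists, beside the 57.2% of all tested genes that were lower under both hairpins. Of 15 SIN3-HDAC corepressor genes, 13 were lower under both and none higher, with a median of -0.56 and -0.78. SIN3A, the scaffold that Mxd proteins bind, was at 8.57 TPM in shCON against 5.24 TPM with shUSP16#1 and 3.55 TPM with shUSP16#2, whereas HDAC1 was at 124, 124 and 114 TPM. ARID4A (4.54, 2.24 and 0.69 TPM) and SAP30 (12.7, 6.63 and 7.06 TPM) had the largest differences below shCON shared by both hairpins. With the GC trend removed the median was -0.28 and -0.51. Of 15 tested MYC coactivators, 12 were lower and 2, ZBTB17 and RUVBL2, higher, with a median of -0.56 and -0.62. With the GC trend removed and the median of all tested genes (-0.17 and -0.37) restored, 0 were higher under both, against 17.3% of tested genes. On that scale ZBTB17 was at 0.14 and -0.046 and RUVBL2 at -0.19 and -0.37. ZBTB17 thus stayed above the restored median under both hairpins and RUVBL2 did not. EP300, an acetyltransferase, was at 12.9, 4.85 and 3.77 TPM, and CCNT1, a subunit of the elongation kinase P-TEFb, at 9.29, 4.36 and 3.33 TPM. KAT2A was listed at 0 in all libraries and was not tested.

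The genes that join MGA in its Polycomb complex, PRC1.6, were mostly lower as deposited, as MGA was. Against its GC bin, MGA itself was at -0.20 with shUSP16#1 and 0.25 with shUSP16#2. Of 10, 8 were lower under both hairpins (CBX3, E2F6, RNF2, YAF2, TFDP1, RYBP, PCGF6 and CBX1) and RING1 was higher as deposited. With the GC trend removed and the median of all tested genes (-0.17 and -0.37) restored, RING1 was at 0.15 and -0.11. It was thus still above that median under both hairpins. The list median of -0.63 and -0.94 became -0.24 and -0.50 on that scale, beside the -0.17 and -0.37 of all tested genes. Of 6 MLXIP and MLX target genes, 5 were lower under both (TXNIP, ARRDC4, ARRDC3, KLF10 and HK2), and PFKFB3 was not. TXNIP, an inhibitor of glucose uptake and the best known target of MondoA, was at 51.8 TPM in shCON against 30.8 TPM with shUSP16#1 and 20.9 TPM with shUSP16#2. With the GC trend removed and the median of all tested genes restored, these targets had a median of -0.59 and -0.50. MLXIP itself was at -0.46 and -0.59 on that scale. Against their GC bins, MLXIP was at -0.29 and -0.23 and its partner MLX at 0.38 and 0.33.

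Of 18 tested genes known to be induced by c-Myc through E-boxes, 14 were lower under both hairpins and 1, SHMT2, higher. The median was -0.45 and -0.60, and 8 of them were lower by at least 1.5 times under both, against 20.8% of all tested genes. NCL, a nucleolar protein of ribosome assembly, was at 576, 245 and 196 TPM and HSPD1, a mitochondrial chaperonin, at 486, 222 and 172 TPM. Both were named as the largest falls of the list shared by the hairpins, and differed by more than MYC did, by a change of -1.23 and -1.55 for NCL. Not every gene of the list did so. ENO1 was at -0.0018 and 0.037 and CAD at -0.076 and 0.049. Other factors that bind E-boxes had a median nearer to 0. Of 8 tested, USF1, TFE3, TFAP4, SREBF1, SREBF2 and MITF were lower under both and USF2 and TFEB higher, with a median of -0.12 and -0.07 (-0.30 and -0.45 with the GC trend removed). As deposited this is above the median of all tested genes. TFEB, a factor of lysosomal genes, was at 1.25, 2.98 and 4.04 TPM.

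**Figure D5:**
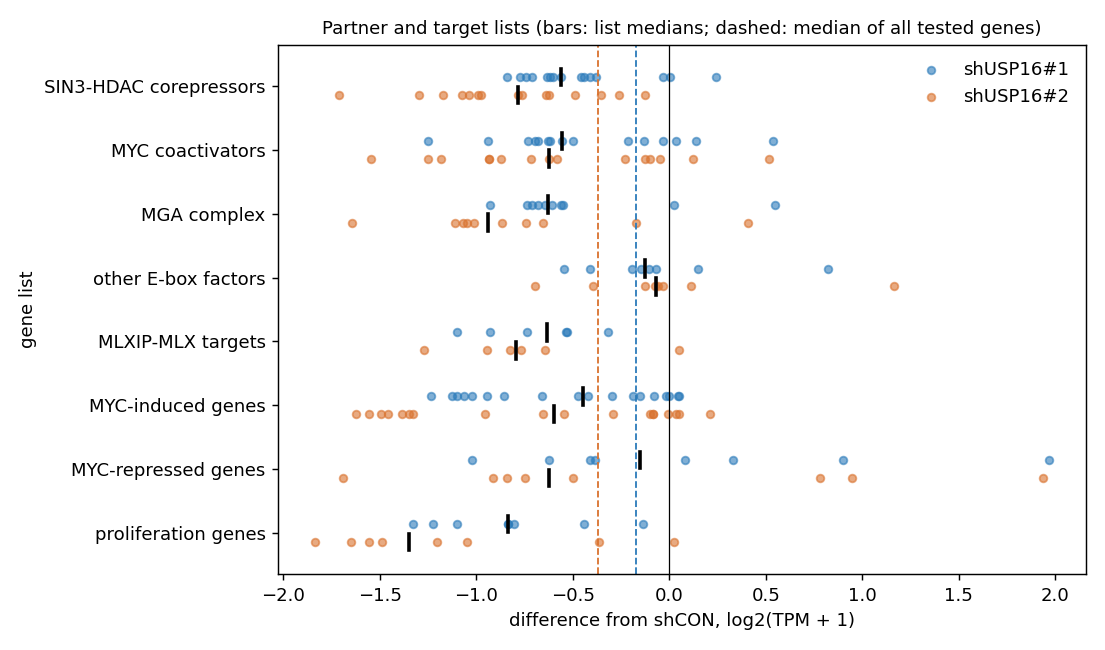
Difference from shCON on the log2(TPM + 1) scale for each tested gene of 8 lists, blue for shUSP16#1 and orange for shUSP16#2; bars are list medians and dashed lines the medians of all tested genes, -0.17 and -0.37. The corepressor, coactivator, MGA complex, MLXIP-MLX target and MYC-induced lists have medians left of the dashed lines, and the other E-box factors do not.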

How the data were processed

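RNA-seq was done on 3 libraries of PC3 cells, 1 per condition, by Majorbio. The authors deposited TPM values with 2 decimals for 60930 genes from the Majorbio Cloud Platform. The submitters' processing notes name CASAVA, HISAT2 and hg19, while 58516 identifiers matched GENCODE release 29 (GRCh38), from which positions, GC content and overlaps were taken. The quantification tool is not given in the sources used here. Another 3 columns repeat the TPM under the same names and were not used. TPM keeps no depth, so precision is unknown.

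Repeated names (1211) were left out, keeping the entry with the highest mean. A mean of 1 TPM was required, which 13637 genes met. These are called tested because they were compared, and no statistical test was run. Changes were computed with a pseudocount of 1 TPM. To remove the GC trend, each gene's change was set against the median of its bin, of 50 bins, and the overall median was then restored. A gene at its bin median is thus at -0.17 under shUSP16#1 and -0.37 under shUSP16#2 on that scale. Genes named were all members, USP16, every detected gene of lists of up to 10, the 2 lowered and 2 raised most by both hairpins in longer lists, and the 3 genes nearest in level to MYC and to the member that changed most. RAB24, PRELID1, PSMC3IP, SIN3A, HDAC1 and E-box positions fall outside this rule and were chosen for their role or position. Some marker genes are not reported here. The members and lists were chosen with earlier results of these data known. The procedures were tested on simulated data. Python 3.11.15, numpy 2.4.6 and pandas 2.3.3 were used.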

Additional observations from a re-analysis of the deposited data

Results flagged for a closer look

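Some genes differed from shCON in opposite directions under the hairpins, each given as the difference in log2(TPM + 1) under shUSP16#1 and then shUSP16#2. The difference between the hairpins was not tested, and each value comes from 1 library. Among the members this was MLX alone, at 0.21 and -0.039. Among the partners CDKN2B was at 0.33 and -0.75, SIN3B at 0.24 and -0.26, and PFKFB3 at -0.53 and 0.050. The others were smaller: LDHA at 0.050 and -0.29, L3MBTL2 at 0.023 and -0.17, E2F1 at -0.14 and 0.023, HDAC1 at 0.0029 and -0.12, CAD at -0.076 and 0.049, CDK9 at 0.037 and -0.047, and ENO1 at -0.0018 and 0.037.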

How the results depend on the processing

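No paired analysis was possible because the conditions are single libraries with no replicate numbers to share. A value counted as moved when it changed by more than the SD of the values of the hairpins, and a count when it changed by more than 1.5 times. For a single gene, taking 1 hairpin alone cannot change the mean by more than that SD. Such a setting could reverse a gene's value but could not count as moved. The SD was 0.68 for MXD1 and 0.0026 for MXD3, so the tallies do not measure how stable each gene's value is. Of the summary results under their alternatives, 64 moved by less, 26 moved and 1 reversed. Of those for single genes, 43 moved by less, 17 moved and 6 reversed, and of the shares of all tested genes 6 moved by less and 10 moved. The cause was not tested. With the GC trend removed, the mean change of MXD4 was -0.15 and of MNT -0.37, and -0.16 and -0.32 with the GC content of the transcript nearest in length, which was chosen after seeing the data. Centring on the overall median gave 0.046 for MLXIP. MLX was at 0.21 and -0.039 with either hairpin alone. The median of the 10 members, -0.27, was -0.0049 centred and -0.38 with the GC trend removed. The 1 member lower by at least 1.5 times became 0 with a minimum of 5 TPM, against 21.1% of the genes then tested. The count was also 0 centred, against 11.2%, and with the GC trend removed, against 11.9%. A pseudocount of 0.1 gave 2, against 24.9%. A single hairpin gave 1 with shUSP16#1, against 23.2%, and 3 with shUSP16#2, against 38.5%. For at least 2 times, shUSP16#1 alone gave 0 lower members, against 5.79%, and shUSP16#2 alone gave 1, against 19.5%. At that fold 1 member, MXD3, was higher under both when centred, against 2.5%, or with a pseudocount of 0.1, against 2.1%. The balance of MYC to its antagonists, -0.47, was -0.074 without MXD3 and -0.16 with equal weights. Leaving out MXD3, rescaling by length, and removing the GC trend or taking a single hairpin for the counts and the lists, were also chosen after seeing the data.

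List medians of the mean change, centred, were -0.44 for the corepressors, -0.34 for the coactivators, -0.50 for the MGA complex, 0.14 for the other E-box factors (from -0.13), -0.49 for the MLXIP and MLX targets and -0.25 for the MYC-induced genes. With the GC trend removed they were -0.47 for the corepressors, -0.36 for the MGA complex, -0.39 for the other E-box factors, -0.53 for the MLXIP and MLX targets, -0.63 for the MYC-induced genes and -0.70 for the proliferation genes. With a single hairpin, medians ranged from -0.62 to -0.56 for the coactivators, -0.12 to -0.066 for the other E-box factors and -0.79 to -0.63 for the MLXIP and MLX targets.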

Other observations

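The genes whose levels in the 3 libraries lay nearest to those of MYC were SF3B6, ANXA7 and TPD52L2, at Euclidean distances of 0.076, 0.12 and 0.13 on the log2(TPM + 1) scale, and 25 tested genes lay within 0.25. SF3B6, a splicing factor subunit, was at 249.6, 204 and 173 TPM in shCON, shUSP16#1 and shUSP16#2. Nearest to MXD1 were CLK4, GLIS3 and POC5, with CLK4 at 4.52, 3.32 and 0.99 TPM, and 24 tested genes lay within 0.25.

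Genes known to be repressed by c-Myc did not move one way. NDRG1 was at 123 TPM in shCON against 485 and 475 TPM with the hairpins, and CDKN1C, a CDK inhibitor, at 3.51, 7.43 and 7.70 TPM. NDRG2 was at 2.56, 2.77 and 5.12 TPM. THBS1, an inhibitor of angiogenesis, was lower, at 509, 251 and 157 TPM, as were GADD45A at 136, 88.3 and 71.9 TPM, CDKN1A at 77.3, 59.0 and 42.7 TPM and CDKN1B at 12.97, 9.52 and 8.88 TPM. CDKN2B was at 5.88, 7.66 and 3.10 TPM, and GAS1 was listed at 0. Of the 8 proliferation genes, TOP2A, MKI67, CCNA2, CDK1, CCNB1, PCNA and MCM2 were lower under both hairpins, with a median of -0.83 and -1.35 over the list. E2F1 was not, at 41.6, 37.7 and 42.2 TPM.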
